A study of Caenorhabditis elegans with 2 samples.

Results

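Of the 3338 reproducible NHR-48 peaks on the nuclear chromosomes of Caenorhabditis elegans, 247 (7.40%, exact 95% Clopper-Pearson interval 6.53 to 8.34%) had their summit inside a tRNA gene or within 500 bp of one, and these are the tRNA-gene peaks described here. A peak was a region of the optimal list of the irreproducible discovery rate (IDR) procedure, which keeps regions whose ranks agree between replicates, on the ce11 build. The summit is the authors' position of highest signal in a region. Genes were those of biotype tRNA in Ensembl release 115 for WBcel235, the assembly that ce11 names. The peaks lay at 284 of 612 nuclear tRNA genes (46.4%, 42.4 to 50.4%), since a summit between close neighbours counted for each. Intervals here cover counting error only, and peaks or genes of the same cluster are not independent.

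The peaks came from chromatin immunoprecipitation with sequencing (ChIP-seq) on whole hermaphrodite L4 larvae of strain OP518, collected 48.5 h after synchronization. The strain carries the mutation unc-119(tm4063) and the integrated transgene wgIs518, which supplies NHR-48 fused to GFP and FLAG at its C terminus. Chromatin was precipitated through the GFP, so binding of the fusion was followed and not that of the native protein. The samples are 2 biological replicates of this 1 group. No second strain or stage was analysed here, and whole animals do not show which cells a peak came from.

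Transfer RNAs carry amino acids to the ribosome, and their genes are short and transcribed by RNA polymerase III. That enzyme is recruited through promoter elements that lie within the transcribed sequence, the A box near the start and the B box in the part that encodes the T arm, which are bound by TFIIIC before TFIIIB places the polymerase just upstream. Animal genomes hold most tRNA genes in several copies, many with the same sequence. NHR-48 is a nuclear hormone receptor, of a family that is very large in nematodes, and such zinc finger proteins generally bind short DNA elements near genes read by RNA polymerase II.

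The gene sequences below are 5′ to 3′ on the gene's strand, from the RefSeq WBcel235 genome, and the capitals mark the B box pattern, searched as GTTCNANNC. They are shown because copies with exactly these letters differed in how often they had a peak. The tRNA-Arg sequence, printed for C18A11.t2 (X:8036685-8036757, minus strand), had a peak at 10 of its 10 copies. The tRNA-Ala sequence, for ZK622.t1 (II:5292332-5292403, plus strand), had one at 12 of 15 copies. The tRNA-Pro sequence, for F46G11.t2 (X:5801211-5801282, minus strand), had one at 16 of 24 copies. The tRNA-His sequence, for C06G1.t1 (X:16634830-16634901, minus strand), had one at 1 of 11 copies.
C18A11.t2 tRNA-Arg: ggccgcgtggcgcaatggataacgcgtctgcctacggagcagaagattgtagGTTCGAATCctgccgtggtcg
ZK622.t1 tRNA-Ala: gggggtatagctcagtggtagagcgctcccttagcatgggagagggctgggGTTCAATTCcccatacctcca
F46G11.t2 tRNA-Pro: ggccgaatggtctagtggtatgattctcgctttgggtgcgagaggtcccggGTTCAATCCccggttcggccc
C06G1.t1 tRNA-His: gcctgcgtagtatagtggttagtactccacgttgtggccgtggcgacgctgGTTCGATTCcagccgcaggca

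The next sequences are the 100 bp centred on the summits of 4 of the strongest tRNA-gene regions, on the plus strand of the same genome, to show what lies where the signal was highest. Capitals mark the B box pattern or, on either strand, one of these: GAGAGA, the E-box CACGTG, the GATA-factor element TGATAA, or the hexamers AGTGCA or AGTTCA, or the hexamer AGGTCA, known from nuclear receptors. The windows were X:8036400-8036499 beside C18A11.t2, IV:14611162-14611261 beside F13G11.t1, V:15465126-15465225 at T23F1.t1 and X:3036058-3036157 beside M02F4.t1. Both the AGGTCA and the B box pattern marked in the T23F1.t1 window lie inside that tRNA gene.
C18A11.t2 window: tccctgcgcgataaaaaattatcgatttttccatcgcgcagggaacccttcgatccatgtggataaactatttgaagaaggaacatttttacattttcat
F13G11.t1 window: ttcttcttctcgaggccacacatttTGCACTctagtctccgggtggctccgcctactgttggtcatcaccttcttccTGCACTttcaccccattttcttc
T23F1.t1 window: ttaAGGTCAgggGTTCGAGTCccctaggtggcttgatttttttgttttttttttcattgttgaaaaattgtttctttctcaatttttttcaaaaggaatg
M02F4.t1 window: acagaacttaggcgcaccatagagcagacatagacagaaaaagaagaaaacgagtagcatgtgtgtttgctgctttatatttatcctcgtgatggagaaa

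The first question was how often tRNA genes had a peak. The share of 46.4% stood beside 8.18% of all 46890 nuclear genes of any biotype, counted with the same window. Among small noncoding genes of other kinds, 24.0% of 129 snRNA genes, whose products act in splicing, and 28.6% of 346 snoRNA genes, whose products guide rRNA modification, had a summit inside or within 500 bp. Protein-coding genes had one in their promoter window (1000 bp upstream to 200 bp downstream of an annotated 5′ end) in 9.01% of 19973 cases. A summit lay inside the gene itself at 102 tRNA genes (16.7%, 13.8 to 19.9%). The other 182 tRNA genes with a peak had it beside them.

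Weaker regions were listed at most of the remaining tRNA genes, in lists that also hold background. The share of all nuclear genes with such a region nearby was not counted. The list called on both replicates pooled, which holds peaks together with background, had a summit within 500 bp of 513 tRNA genes (83.8%, 80.7 to 86.7%). The replicate lists gave 513 genes in replicate 1 and 507 in replicate 2. Of the pooled regions beside tRNA genes, 247 of 593 (41.7%, 37.7 to 45.7%) were IDR peaks, against 3091 of 29383 (10.5%, 10.2 to 10.9%) of the other nuclear pooled regions, and against 11.1% of all 29976. Thus 229 tRNA genes had a pooled region that was not an IDR peak, and 99 had none. Pooled signal values, which are the authors' and on the scale of their peak caller, had a median of 148 at tRNA genes with a peak and 64.6 at those with a weaker region only. The lowest value with a peak was 95.6 and the highest without one 95.0, so the gap between these medians follows from how the genes were grouped.

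The tRNA-gene peaks were seldom among the strongest of the series. Their pooled signal ranged between 95.6 and 921 with a median of 148 (quartiles 120 and 199.5), while the other 3091 nuclear peaks had a median of 156, an upper quartile of 239 and a highest value of 2955. In replicate 1 the medians were 82.7 at tRNA-gene peaks and 99.1 at other peaks, and in replicate 2 they were 71.2 and 71.6. The middle of the distributions was therefore close, and the upper end was not: 5 tRNA-gene peaks (2.02%) but 287 other peaks (9.29%) had a signal above 400. There was 1 tRNA-gene peak among the 100 strongest nuclear peaks, 15 among the strongest 500 and 51 among the strongest 1000.

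The IDR procedure keeps regions whose ranks agree between replicates, so the likeness of the replicates is in part fixed by the choice of peaks and is given as a description. Of the 247, 197 (79.8%, 74.2 to 84.6%) overlapped the 3361 top-ranked regions of both replicate lists, against 79.3% of the other nuclear peaks, and 4 overlapped the top of neither. No region of any rank was found for 2 peaks in replicate 1 and for 3 in replicate 2. Across the 242 peaks with a region in both lists, Spearman's rho between replicates was 0.756, beside 0.781 across 3070 other peaks, chosen the same way and from the same libraries. F47G6.t1 (tRNA-Arg) shows a mismatch, with a pooled signal of 229 and 90.5 in replicate 1 but no region in replicate 2. C04E7.t1 (tRNA-Leu) was the opposite case, with 194 pooled and 91.2 in replicate 2 but no region in replicate 1.

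**Figure D1:**
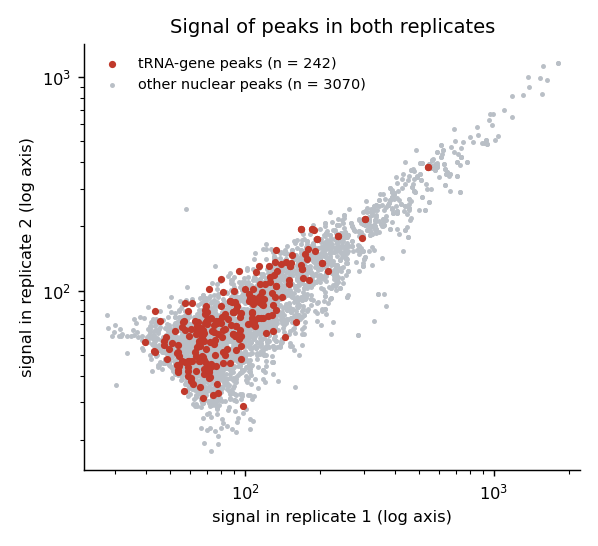
Signal of each peak in replicate 1 (horizontal, log axis) and replicate 2 (vertical, log axis), for 242 tRNA-gene peaks (red) and 3070 other nuclear peaks (grey) with a region in both replicate lists. The tRNA-gene peaks follow the same diagonal as the others and are few at its upper end, where 1 tRNA-gene peak stands at 540 and 379.

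Most tRNA-gene peaks had the commonest interval width. A width of 476 bp, the most frequent in the IDR list, was found for 228 of them (92.3%, 88.2 to 95.3%) and for 78.5% of other peaks. Another 17 were narrower (6.88%, against 16.9% of other peaks) and 2 were wider. Fewer of them lay in promoter windows of protein-coding genes, with 61 (24.7%, 19.4 to 30.6%) against 1580 of the other peaks (51.1%, 49.3 to 52.9%). By the summit base, 102 were in a tRNA gene, 77 between genes, 40 in introns, 16 in protein-coding exons and 12 in exons of other genes.

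Summits gathered on the tRNA gene and close to it on both sides, and most were outside the gene itself. The median summit was 33 bp downstream of the gene's first base, with quartiles of -16 and 84.5 bp, where negative values are upstream, and the tRNA genes had a median length of 72 bp (64 to 122 bp). The summit was inside the gene for 102 peaks (41.3%, 35.1 to 47.7%), upstream for 77 (31.2%) and downstream for 68 (27.5%). Measured to the nearest edge, 194 summits (78.5%) were inside or within 50 bp, 232 (93.9%) within 100 bp and 243 (98.4%) within 200 bp. The median offset from the gene's centre was -3 bp, and from the centre of the B box pattern, in the 243 nearest genes that held one, it was -28 bp. With a usual interval of 476 bp around a gene of 72 bp, the interval does not resolve the A box, the B box and the upstream flank.

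**Figure D2:**
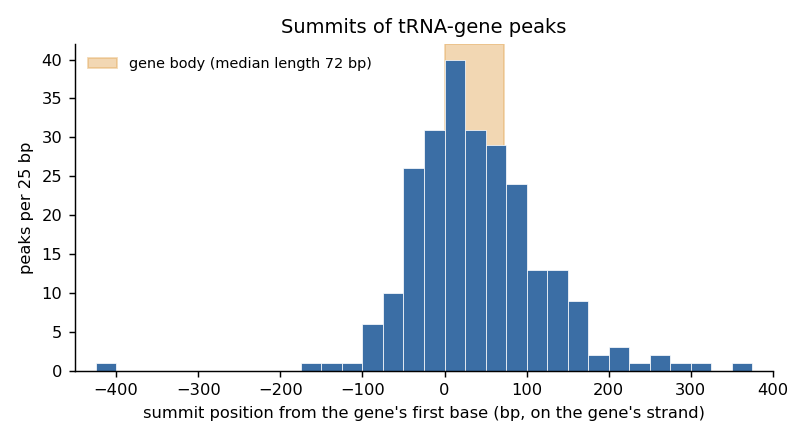
Number of tRNA-gene peaks per 25 bp (vertical) by the position of their summit from the first base of the nearest tRNA gene, on the gene's strand (horizontal, bp); the shaded band is a gene of median length, 72 bp. Summits spread over the gene body and its near flanks on both sides, with a median of 33 bp, and few lie over 200 bp away.

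The share of summits inside the gene was also counted by strength, neighbours and interval width. With all nuclear peaks in 4 equal bins by pooled signal, 49.2% (35.9 to 62.5%) of the 59 tRNA-gene peaks in the weakest bin had the summit inside the gene. That share was 44.0% of 75 in the next bin, 39.2% of 79 in the one after and 26.5% (12.9 to 44.4%) of 34 in the strongest, and the intervals of the weakest and strongest bins overlap. Where 2 or more tRNA genes were within 500 bp, 13 of 52 summits were inside the nearest gene (25%, 14.0 to 38.9%), against 89 of 195 (45.6%, 38.5 to 52.9%) with 1 gene. The 17 intervals narrower than 476 bp had 2 summits inside, 8 upstream and 7 downstream. Of the tRNA-gene peaks on X, 44.9% had the summit inside the gene, and of those on autosomes 36.7%, with overlapping intervals.

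Shares were close on both strands. The nearest gene was on the plus strand for 126 of the 247 peaks (51.0%, 44.6 to 57.4%). Peaks lay at 143 of 298 genes on the plus strand (48.0%) and at 141 of 314 on the minus strand (44.9%).

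The sequence at the summits mirrored that position. The B box pattern GTTCNANNC was in 113 of 247 windows of 100 bp (45.7%, 39.4 to 52.2%) at tRNA-gene peaks and in 3.49% at other peaks. Most tRNA genes hold this pattern, so a window that covers the 3′ part of one does too. It was in 85 of 102 windows with the summit inside the gene, in 28 of 68 downstream and in 0 of 77 upstream. The A box pattern was in 18.6% of windows at tRNA-gene peaks and in 1.81% at other peaks. The A box pattern searched was found in only 252 of the 612 tRNA genes (41.2%), and the B box pattern in 95.9%. The window shares of these patterns therefore do not show whether summits favoured the A box or the B box. Elements of other factors were less frequent than at other peaks. GAGAGA was in 12.1% of windows at tRNA-gene peaks and 22.6% at other peaks, TGATAA in 5.67% and 21.5%, and CACGTG in 1.21% and 8.44%. In percentage points, shares were closer for the nuclear receptor hexamers, and AGGTCA was more frequent at tRNA-gene peaks, with overlapping intervals. AGTGCA was in 4.05% of windows at tRNA-gene peaks and 6.31% at other peaks, AGTTCA in 5.26% and 5.27%, and AGGTCA in 6.07% and 3.24%. Hexamers that are part of a tRNA gene, as the AGGTCA in T23F1.t1 is, were not counted apart. The median GC content of the windows was 46.0% at tRNA-gene peaks and 43.0% at other peaks, and that of tRNA genes was 58.3%; the part of base composition in these shares was not tested.

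The X chromosome held more than its share of these peaks. It had 138 of the 247 (55.9%, 49.4 to 62.2%), while it holds 45.1% of the nuclear tRNA genes and 22.0% of the other nuclear peaks. A peak was found at 163 of 276 tRNA genes on X (59.1%, 53.0 to 64.9%) and at 121 of 336 on the autosomes (36.0%, 30.9 to 41.4%), a difference of 23.0 percentage points. Among the autosomes the shares were 30.3% on I, 47.4% on II, 42.2% on III, 33.8% on IV and 29.5% on V, with wide intervals such as 19.7 to 40.9% on V. Of all NHR-48 peaks on X, 16.8% were tRNA-gene peaks, against 3.45 to 5.08% on single autosomes. Where a pooled region lay within 500 bp, its signal had a median of 122 at 251 genes on X and 90.2 at 262 on autosomes. Genes without such a region, 25 on X and 74 on autosomes, are not in these medians. With X cut into 3 equal stretches, a peak was found at 72 of 107 genes in the central one (67.3%), at 27 of 51 in the left one (52.9%) and at 64 of 118 in the right one (54.2%).

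**Figure D3:**
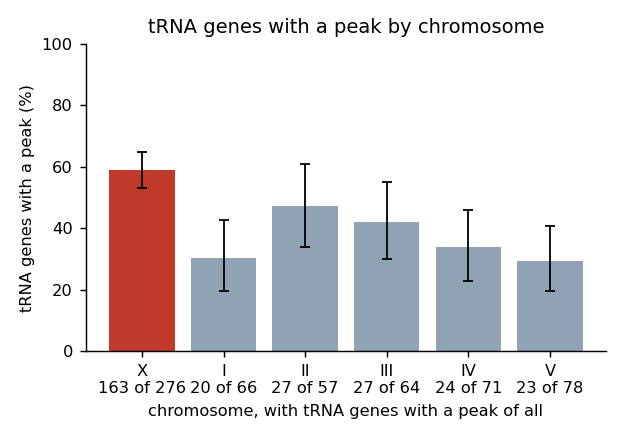
Share of tRNA genes with a peak (vertical, %) on each chromosome, X in red and the autosomes in grey, with exact 95% intervals as bars and the counts under each name. X stands at 59.1% and the autosomes between 29.5% and 47.4%.

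X also had the higher share when groups of identical genes were pooled. The order was not the same in every group, and the groups in each direction were not counted. In the 46 groups of identical copies with members on both, 119 of 195 copies on X had a peak (61.0%, 53.8 to 67.9%), against 96 of 234 autosomal copies (41.0%, 34.7 to 47.6%). By amino acid, the share was higher on X for 18 of 20 kinds of tRNA. For tRNA-Gly it was 16 of 20 genes on X and 12 of 35 on autosomes, and for tRNA-Ser 13 of 18 and 8 of 21. The other two were tRNA-Arg, with 14 of 27 genes on X and 9 of 17 on autosomes, and tRNA-Met, with 2 of 8 and 4 of 12.

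Among amino acids, tRNA-Cys and tRNA-Ala had the highest shares and tRNA-His the lowest of those with 10 or more genes. RefSeq gave the amino acid of 607 of the 612 genes, and the anticodon was not used here. A peak was found at 11 of 13 tRNA-Cys genes (84.6%, 54.6 to 98.1%), 23 of 34 tRNA-Ala genes (67.6%, 49.5 to 82.6%) and 2 of 20 tRNA-His genes (10%, 1.23 to 31.7%). The other kinds had shares between 25% for tRNA-Trp, with 3 of 12, and 53.8% for tRNA-Ser, with 21 of 39. The single gene for tRNA-Sec, which inserts selenocysteine, had none. Intervals of most neighbours in this order overlapped.

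**Figure D4:**
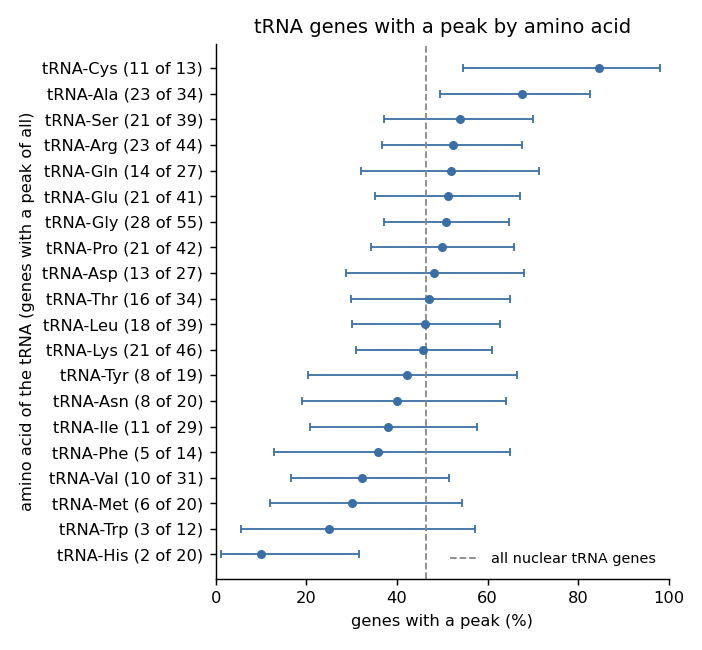
Share of tRNA genes with a peak (horizontal, %) for each amino acid with 10 or more genes, with exact 95% intervals; the dashed line is the share over all 612 nuclear tRNA genes, 46.4%. The interval for tRNA-His lies below the line and those for tRNA-Cys and tRNA-Ala above it.

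Identical copies did not all have peaks. The 612 genes fell into 188 sequences, of which 58 had 2 or more copies. In 44 of those groups some copies had a peak, in 6 every copy did and in 8 none did. A peak was found at 171 of 329 genes with 10 or more copies (52.0%, 46.4 to 57.5%), at 44 of 130 single-copy genes (33.8%, 25.8 to 42.7%), and at 44.1% and 45.9% of genes with 2 to 4 and 5 to 9 copies. How the authors placed reads that match several copies is not given in the sources used here, and its part in these shares was not tested. The 5 largest groups had peaks at 18 of 29 copies for tRNA-Gly, 13 of 25 for tRNA-Lys, 16 of 24 for tRNA-Pro, 12 of 21 for tRNA-Asp and 12 of 20 for tRNA-Glu.

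**Figure D5:**
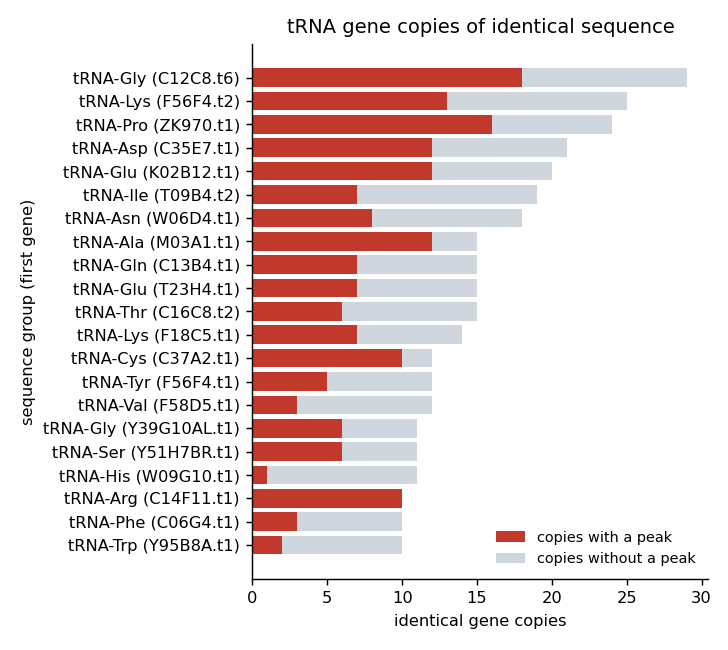
Number of gene copies (horizontal) with a peak (red) and without one (grey) in each of the 21 groups of identical tRNA genes with 10 or more copies; each group is named by its amino acid and first gene. The tRNA-Arg group has a peak at 10 of 10 copies and the tRNA-His group at 1 of 11.

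The tRNA-Arg group was the one group of 5 or more copies, of 33, in which every copy had a peak, and it was chosen for mention after its values were seen. All 10 copies are on X. C18A11.t2 had the strongest region of all tRNA genes and C14F11.t1 the next highest signal of the group, with 194 in the pooled list, 104 in replicate 1 and 89.8 in replicate 2. F09B9.t1 had 192, 104 and 91.5 in the same order, and T01C1.t1 had 122, 64.9 and 56.3. The lowest was the region at K01A12.t3, with 105, 74.3 and 32.6, which it shared with 4 neighbouring tRNA genes. Summits were inside the gene at C14F11.t1, F12D9.t4, T06H11.t2, F09B9.t1 and T01C1.t1.

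The tRNA-His genes were the reverse case. The 11 copies of the sequence shown include 8 on X, and C06G1.t1 alone had a peak, with a signal of 231 in the pooled list, 119.5 in replicate 1 and 107 in replicate 2. Its summit was 16 bp upstream of the gene. C49F5.t1, another lone copy on X, had a weaker pooled region of 78.2, with 45.8 in replicate 1 and 30.8 in replicate 2. The next line pair gives the 60 bp upstream of each on the gene's strand, X:16634902-16634961 and X:11993593-11993652, both minus, to show that identical genes had different flanks; capitals are as in the windows above.
C06G1.t1 upstream: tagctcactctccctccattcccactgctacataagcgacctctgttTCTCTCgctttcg
C49F5.t1 upstream: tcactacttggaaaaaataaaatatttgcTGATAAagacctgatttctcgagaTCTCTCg

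Another 6 of the X copies of that tRNA-His sequence form the F28H6 cluster, 1966 bp with genes on alternating strands and no peak. Pooled regions there had signals of 72.3 and 54.1 at 4 genes, and F28H6.t3 and F28H6.t6 had none. The other tRNA-His gene with a peak, ZC449.t1, has a different sequence of 4 copies and signals of 117 pooled, 67.1 in replicate 1 and 49.3 in replicate 2. No tRNA-His gene on an autosome, of 11, had a peak.

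Clusters, runs of tRNA genes with gaps of at most 1000 bp, numbered 100 with 236 genes, and 376 genes stood alone. A peak was found at 123 clustered genes (52.1%, 45.5 to 58.6%) and at 161 lone genes (42.8%, 37.8 to 48.0%), a difference of 9.30 points whose size depends on the window and on the gap allowed. The order was not the same on all chromosomes, with 56.3% of clustered and 61.7% of lone genes on X, and 46.5% and 31.5% on autosomes. Counted by locus, 63 clusters (63.0%, 52.8 to 72.4%) had a peak, 42 of them at every gene and 21 at some. By nearest gene, no cluster had more than 2 peaks, and 16 clusters and 7 lone genes had that number. Among pairs the shares were close for all orientations, as 15 of 26 tandem, 9 of 15 convergent and 22 of 37 divergent pairs had a peak.

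The clusters of 5 or more genes, all 4 on X, ran from no peak to a peak near every gene. K01A12, with 2 tRNA-Arg and 3 tRNA-Cys genes in 930 bp, had 1 peak, 55 bp upstream of K01A12.t4, within 500 bp of all 5 genes. H08J11, with 5 tRNA-Gln genes in 1002 bp, had 1 peak with its summit inside H08J11.t3, with signals of 199 pooled, 104 in replicate 1 and 96.6 in replicate 2. F22F1, with 6 genes for tRNA-Ser, tRNA-Asp, tRNA-Met and tRNA-Ile in 2263 bp, had 1 peak of 181, near 2 of its genes. The F28H6 tRNA-His cluster had none. Clusters of 3 or 4 genes with 2 peaks each included T01B4, where 4 tRNA-Val genes on 1 strand had peaks of 151 and 97.2, and Y65A5A, where 4 genes on 1 strand had peaks of 162 and 155.

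Shares inside and outside protein-coding genes had overlapping intervals. Of tRNA genes inside a protein-coding gene, 124 of 290 had a peak (42.8%, 37.0 to 48.7%), against 160 of 322 outside (49.7%, 44.1 to 55.3%). The order turned between chromosomes, with 63.5% inside and 56.7% outside on X, and 32.5% and 40.8% on autosomes. On the host's strand 64 of 167 had one (38.3%, 30.9 to 46.2%), and on the opposite strand 60 of 123 (48.8%, 39.7 to 58.0%). Peaks lay at 14 of 29 tRNA genes with an intron (48.3%) and 270 of 583 without (46.3%). The B box pattern was in 587 tRNA genes (95.9%). A peak was found at 47.2% of those and at 7 of the 25 without it (28.0%, 12.1 to 49.4%).

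The strongest tRNA-gene region lay beside C18A11.t2, a tRNA-Arg gene on X, and held 2 summits in an interval of 795 bp. The first summit had a pooled signal of 921 and was 235 bp downstream of the gene, and the second had 419 and was 30 bp downstream. The replicate regions there had signals of 540 in replicate 1 and 379 in replicate 2. These ranked 85 and 79 in their lists. The nearest protein-coding 5′ end was that of xol-1, the X-linked switch gene of sex determination, 4863 bp from the first summit.

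F13G11.t1, a tRNA-Arg gene on IV, came next, with 517 in the pooled list, 303 in replicate 1 and 216 in replicate 2, and its summit was 95 bp downstream. T09B4.t1, a tRNA-Ile gene on I, had 479, 296 and 177 in the same lists, with the summit 105 bp downstream. T23F1.t1, a tRNA-Lys gene on V, had 417, 237 and 180, and its summit was 18 bp past the end of the gene and in a promoter window. M02F4.t1, a tRNA-Gly gene on X, had 384, 188 and 192, with the summit 56 bp upstream. In both replicate lists each of these ranked among the top 514 regions.

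The 10 regions that followed had pooled signals between 304 and 384. They lay at F01G12.t1 (tRNA-Glu), F41D9.t3 (tRNA-Asn), R04A9.t1 (tRNA-Gln), C42D8.t1 and F57F5.t1 (tRNA-Ile), F15G9.t1 (tRNA-Ala), F46G11.t2 (tRNA-Pro), C04A11.t1 (tRNA-Leu), Y54G2A.t3 (tRNA-Asp) and C33G3.t2 (tRNA-Lys). Of the 15 strongest regions, 10 were on X and 10 had narrow intervals, and summits were inside the gene in 2, upstream in 5 and downstream in 8. The lowest rank any of them took was 632 in replicate 1 and 597 in replicate 2. On II the strongest was at W09G10.t2 (tRNA-Lys), with 293, 154 and 147 in the pooled list, replicate 1 and replicate 2, and on III at F56F3.t1 (tRNA-Arg), with 275, 180 and 112.

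With each peak credited to its nearest tRNA gene, the strongest peaks for the kinds of tRNA not given above were at F02D10.t2 (tRNA-Ser, 288), C02B4.t2 (tRNA-Tyr, 291), R04D3.t2 (tRNA-Val, 259), C37A2.t1 (tRNA-Cys, 256), R01H5.t1 (tRNA-Thr, 237), T28B4.t1 (tRNA-Phe, 205), C02F12.t1 (tRNA-Met, 189) and C03B1.t1 (tRNA-Trp, 182). Counting every tRNA gene within 500 bp, the strongest peaks for tRNA-Thr and tRNA-Met were instead the one of 293 that W09G10.t3 on II shares with W09G10.t2 and one of 195 at Y22D7AL.t3 on III. By that count the strongest also changed for tRNA-Pro, to the peak of 416.8 at T23F1.t1, and for tRNA-Glu, to that of 384.4 at M02F4.t1.

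At the other end, the 5 weakest peaks had pooled signals between 95.6 and 97.2, at T01B4.t4, F28F8.t4, M163.t2, C28A5.t3 and ZC455.t1. The strongest tRNA genes without a peak were just under them. C26G2.t1 (tRNA-Ile) had 95.0, M01E10.t1 and M01E10.t2 (tRNA-Glu) 94.8 from 1 shared region, B0285.t1 (tRNA-Leu) 94.4 and K02B12.t1 (tRNA-Glu) 94.2. Presence of a peak therefore divides a continuous range of signal. The annotated genes with a name of their own, Y95D11A.4 (tRNA-Phe) and C16H3.7 (tRNA-Val), had none.

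Few peaks lay near the distance limit. The 3 farthest inside it were 425 bp from F22B7.t4, 272 bp from C16D9.t4 and 235 bp from C18A11.t2, with pooled signals of 100, 226 and 921. The 3 nearest outside it were 644 bp from C52G5.t1, 687 bp from C16H3.t1 and 688 bp from C47E8.t1, with 246, 117 and 106. There were 9 peaks between 500 and 1000 bp.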

How the data were processed

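The authors deposited narrowPeak lists for replicate 1, replicate 2 and both pooled, each called against 1 control file, and an optimal IDR list derived from them, per the deposited file listings. The unit used was the deposited signal of each region, on the caller's scale and used only within a list, with the summit offset (column 10). Aligner, caller, versions and IDR threshold are not given in the sources used here, nor is the handling of reads that match several tRNA copies. The deposited lists held 26941, 22704, 30000 and 3361 regions. They hold no read counts, so depth is unknown and the number of regions limits precision. Lists on ce10 were not used, since the annotation is of ce11 and positions were not converted.

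Summits, 1-based, were matched to Ensembl release 115 genes, and amino acids and sequence were taken from RefSeq for the same assembly. Mitochondrial peaks were kept apart. A gene's pooled signal was the highest among regions with a summit within 500 bp. Clusters had gaps of at most 1000 bp, replicate overlap needed 1 bp, and copies were identical spliced genes. The distances, the motifs and the rule for named genes were set with earlier results of these data known, as were the members and lists. Named were the 15 strongest merged regions, the strongest per chromosome and amino acid, clusters of 5 or more genes and the 5 with most peaks, the 5 largest copy groups, the 5 weakest peaks, the 5 strongest genes without a peak, up to 5 peaks missing from a replicate's top, genes with own symbols and the 3 peaks on each side of the limit. No test was planned, as there is 1 group, and shares are descriptions. Alternatives changed the distance, the gap, the list and merging. Scripts ran under Python 3.11.15 (scipy 1.17.1 for intervals, pandas 2.3.3 and numpy 2.4.6 for tables, matplotlib 3.10.9 for plots), and the matching was tested on simulated data.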

Additional observations from a re-analysis of the deposited data

Results flagged for a closer look

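Mitochondrial DNA was outside the description above and held 23 IDR peaks, of which 13 had the summit inside or within 500 bp of a mitochondrial tRNA gene. These were flagged because no other result used them. They lay at 21 of the 22 mitochondrial tRNA genes, and the signal of the 23 peaks had a median of 2815 and a range of 892 to 7714. The mitochondrial DNA is 13794 bp long, and the part of it within 500 bp of a tRNA gene was not counted. These counts therefore do not show a preference for tRNA genes there. Mitochondrial tRNA genes are read from long transcripts by the mitochondrial polymerase, not by RNA polymerase III.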

How the results depend on the processing

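Of 60 recomputed values, 39 kept within 1 SD, the interval or 1.5 times of the value given, and 21 moved. A change of sign was looked for only in the clustered minus lone and X minus autosomes differences, and 0 were found. Taking the IDR peaks above the median signal left 113 tRNA-gene peaks, 21.4% of tRNA genes, a median position of 38 bp, a clustered minus lone difference of 5.16 points and an X minus autosomes difference of 14.5 points. A distance of 1000 bp gave 51.1% of genes, a position of 28 bp, differences of 18.1 and 25.6 points, and a 24.9 point difference in the IDR share of pooled regions against 31.1. A distance of 250 bp gave differences of 3.21 and 21.2 points. Merging overlapping peaks gave a position of 26.5 bp, and cluster gaps of 500 and 2000 bp gave clustered minus lone differences of 17.2 and 6.78 points. Using the 3361 top regions of 1 replicate alone gave 233 to 247 peaks, 42.8 to 45.8% of genes and 54.1 to 55.9% on X. Positions were then 34 to 38 bp, and 32.4 to 35.2% of summits were inside the gene. Of those outside, 49.1 to 51.7% were upstream, against 53.1% with the IDR peaks. Differences were 9.67 to 12.4 points (clustered) and 20.4 to 21.6 points (X). The ratio of median signals (tRNA-gene over other peaks) was recomputed on the same IDR peaks with the signals of 1 replicate. It was 0.834 in replicate 1 and 0.994 in replicate 2, against 0.949 with pooled signals. The cause of these shifts was not tested. No paired analysis was possible because there is 1 group.

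Depth is unknown, and a gene without a peak is one with no listed summit nearby, not one shown to lack binding. There are 2 replicates and 1 group, and no list from worms without the tagged protein was analysed here.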

Other observations

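Pseudogenes had peaks less often than the 46.4% of tRNA genes. Of 202 tRNA pseudogenes over 1000 bp from any tRNA gene, 9 had a summit inside or within 500 bp (4.46%, 2.06 to 8.29%). The share over all nuclear genes, 8.18%, was higher but lies within that interval. The B box pattern was in 158 of them, and a peak was found at 7 of those and at 2 of the 44 without it. On X lay 27 of the 202 (13.4%), against 45.1% of the tRNA genes.

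The next values are for other genes of RNA polymerase III and for its machinery. The 16 annotated 5S rRNA genes had 0 peaks, which allows a share of up to 20.6% by the exact interval and does not separate them from the 8.18% of all nuclear genes. The RNA of RNase P, rpr-1, which trims tRNA precursors, had a pooled signal of 230, and mrpr-1, the RNA of RNase MRP, had 203. Of 33 protein-coding genes of the polymerase, its factors and tRNA processing, 2 had a peak in the promoter window (6.06%), against 9.01% of all protein-coding genes. They were rpac-19, a subunit shared by RNA polymerases I and III, with 196, and rtcb-1, the tRNA ligase, with 98.7. In the 200 bp on each side of tRNA genes, GAGAGA was in 41.2% of 284 genes with a peak and 25.3% of 328 without. TGATAA was in 37.7% and 43.0%, and CACGTG in 4.23% and 6.10%. Shares were close for the nuclear receptor hexamers, with AGTGCA in 15.1% and 14.3%, AGTTCA in 24.3% and 24.7%, and AGGTCA in 15.5% and 17.1%. X and autosomes were not counted apart for these flanks. X holds 163 of the 284 genes with a peak and 276 of all 612 tRNA genes. The part of the chromosome in the flank shares was not tested.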
